A study of Homo sapiens with 8 samples.

Results

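Large ribosomal subunit assembly factors are the proteins that build the large (60S) subunit of the ribosome, mostly in the nucleolus, and are not part of the finished ribosome. Their transcripts were compared here between quiescent and cycling RL cells (RL is an established line of human B lymphoma). A list of 39 such genes was matched to the arrays by gene symbol, and the brightest probe set of each gene, by mean log2 intensity over all 8 arrays, stood for it. Of the 39 genes, 34 had a probe set annotated to that gene alone, and all 34 were bright enough to be tested, among 19775 genes on the arrays and 11678 tested. BOP1, EBNA1BP2, PPAN, GNL3 and DDX18 had no such probe set and were not analysed here. RL cells, labelled positive for the translocation of chromosomes 14 and 18, formed multicellular aggregates over 14 days of culture and were sorted on pyronin Y, which stains RNA. All 8 samples share the line, the kind of culture and the stain. The 4 quiescent samples are the sorted cells with dull staining and the 4 cycling samples those with bright staining, and 30 ng of total RNA of each was labelled for the array. RL is 1 cell line. Whether the samples in each group were cultured separately is not given in the labels, and the p-values cover only sample to sample spread, which may be technical.

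A large subunit is made from a long precursor RNA that holds the 28S and 5.8S rRNAs, to which ribosomal proteins and a separately made 5S rRNA are added. Assembly factors bind in turn, and RNA helicases, methyltransferases, GTPases and AAA ATPases drive the rearrangements that remove them again. The nearly finished particle is exported to the cytoplasm, where the last factors are exchanged for ribosomal proteins. Growing and dividing cells make ribosomes at a high rate, and these genes are commonly counted among the targets of MYC.

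The promoters of the factors are shown first for a sequence feature that many of them share. RefSeq promoter sequences (GRCh38.p14, 250 bases before to 50 bases after each transcript start) were found for 31 of the 39 genes, and 28 of these were measured. BOP1, RRP1B, MAK16, RSL1D1, RPF2, RRS1, DDX18 and URB2 are not in that table. The letters CACGTG, the E-box that MYC and related factors bind, stood in 8 of the 28 (28.6%), against 12.5% of the 9467 genes tested that have a promoter sequence. A gene was counted when any of its promoter sequences held the letters. Counted per promoter, which is an unlike measure, the letters stood in 7.26% of all 35116 promoters in the table. They read the same on both strands. In 7 of the 8 genes an E-box began after the transcript start, between 4 and 36 bases from it. The 30 bases around 1 E-box of each gene are given below on the gene's strand, 5′ to 3′, with the E-box in capitals. MDN1 has another E-box, 155 bases before the start, and the one nearer the start is shown.
MRTO4: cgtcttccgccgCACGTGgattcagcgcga
GNL2: gtacgtcgtgcaCACGTGgtccggcgtggt
NLE1: ctctttctcctcCACGTGgggacgcaggat
PES1: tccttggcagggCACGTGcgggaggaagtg
NOC3L: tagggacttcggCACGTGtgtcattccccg
NOP2: gctaggtccggattgCACGTGgagggccgc
MDN1: cgtgtgctcaccCACGTGtggtgcccctct
SDAD1: tacatgctaacaCACGTGaaaaaatttaca

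The window of MRTO4 is chr1:19251807-19251836 on the plus strand, and its motif begins 15 bases after the start. That of GNL2 is chr1:37595917-37595946 on the minus strand, and its motif begins 4 bases after the start. That of NLE1 is chr17:35142274-35142303 on the minus strand, and its motif begins 13 bases after the start. That of PES1 is chr22:30591880-30591909 on the minus strand, and its motif begins 14 bases after the start. That of NOC3L is chr10:94362903-94362932 on the minus strand, and its motif begins 20 bases after the start. That of NOP2 is chr12:6568242-6568271 on the minus strand, and its motif begins 36 bases after the start. That of MDN1 is chr6:89819750-89819779 on the minus strand, and its motif begins 28 bases after the start. That of SDAD1 is chr4:75991156-75991185 on the minus strand, and its motif begins 228 bases before the start.

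A second motif, CCGGAAG on either strand, which ETS family factors bind, does not overlap the E-box. It stood in 14 of the 28 genes (50.0%), against 22.8% of the same tested genes. Counted per promoter, it stood in 10.3% of all promoters. NOC3L was the 1 measured factor with both motifs. The windows of 30 bases that follow show it for the 3 carriers with the largest falls in quiescent cells (BRIX1, RRP15, GTPBP4) and the 3 with the smallest differences (WDR74, RSL24D1, NSA2), again with the motif in capitals.
BRIX1: cgccaccgagaCCGGAAGgaggcggcacag
RRP15: gtcaggtgacgCTTCCGGcgcagaaaaatg
GTPBP4: tggctgagctcCCGGAAGtgacgtacctca
WDR74: cacacgctgcgCCGGAAGtgtgaactgtct
RSL24D1: gaagaaggtaaCTTCCGGtgacggggttgc
NSA2: acacctccacaCTTCCGGcggtgtaccggc

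The window of BRIX1 is chr5:34915595-34915624 on the plus strand, and its motif begins 105 bases before the start. That of RRP15 is chr1:218285290-218285319 on the plus strand, and its motif begins 9 bases after the start. That of GTPBP4 is chr10:988366-988395 on the plus strand, and its motif begins 57 bases before the start. That of WDR74 is chr11:62839587-62839616 on the minus strand, and its motif begins 15 bases before the start. That of RSL24D1 is chr15:55196945-55196974 on the minus strand, and its motif begins 22 bases before the start. That of NSA2 is chr5:74767113-74767142 on the plus strand, and its motif begins 125 bases before the start.
A match of letters is a description of these windows and not a bound site.

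Every one of the 34 measured factors had a lower mean in quiescent cells once the arrays were centred on their medians, and 32 fell at a limma adjusted p under 0.05, with 0 called higher, at an adjusted or an unadjusted p under 0.05. In the same comparison 32.5% of all genes tested were called lower and 2.8% higher. The median log2 difference (quiescent minus cycling) of the 34 factors was -1.05, against -0.33 for all genes tested, which puts the factors 0.72 below all genes, and 11.2% of all genes tested lay at or under that median. A fall of more than 2-fold was measured for 17 factors, a size reached by 12.7% of all genes tested, and as deposited for 7 factors and 4.53% of all genes. On 28 factors all 4 quiescent arrays lay under all 4 cycling arrays in the centred values, which held for 28.3% of all genes tested. In the deposited values the groups were apart in this way for 21 factors, beside 15.4% of all genes. The sizes differed widely, from NLE1 at -2.79 to NSA2 at -0.33.

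Array scaling decided the call for some factors and not for others. The deposited values give every array the same trimmed mean, so that a level is set against all other transcripts of its array and is no amount per cell. Centring on the array medians lowers every quiescent minus cycling difference by a further 0.41. With the deposited scaling 20 factors fell and 0 rose, beside 15.4% and 12.2% of all genes tested, and the median difference of the factors was -0.64 against 0.08 for all genes. With quantile normalization it was also 20 and 0, beside 16.4% and 10.5%, and under neither scaling did a factor rise at an unadjusted p under 0.05. The same 20 factors fell under all 3 scalings, which 14.1% of all genes tested did. They were PES1, WDR12, RRP1, RRP1B, MAK16, RPF1, BRIX1, RRP15, NOP16, NOC3L, NIP7, RPF2, RRS1, DDX56, NOP2, GNL2, GTPBP4, NLE1, MRTO4 and EIF6. The other 14 moved to smaller differences under the deposited scaling, between -0.47 for URB2 and 0.080 for NSA2, and did not pass there. In bulk RNA, fewer cells of a kind and less RNA per cell cannot be told apart.

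**Figure D1:**
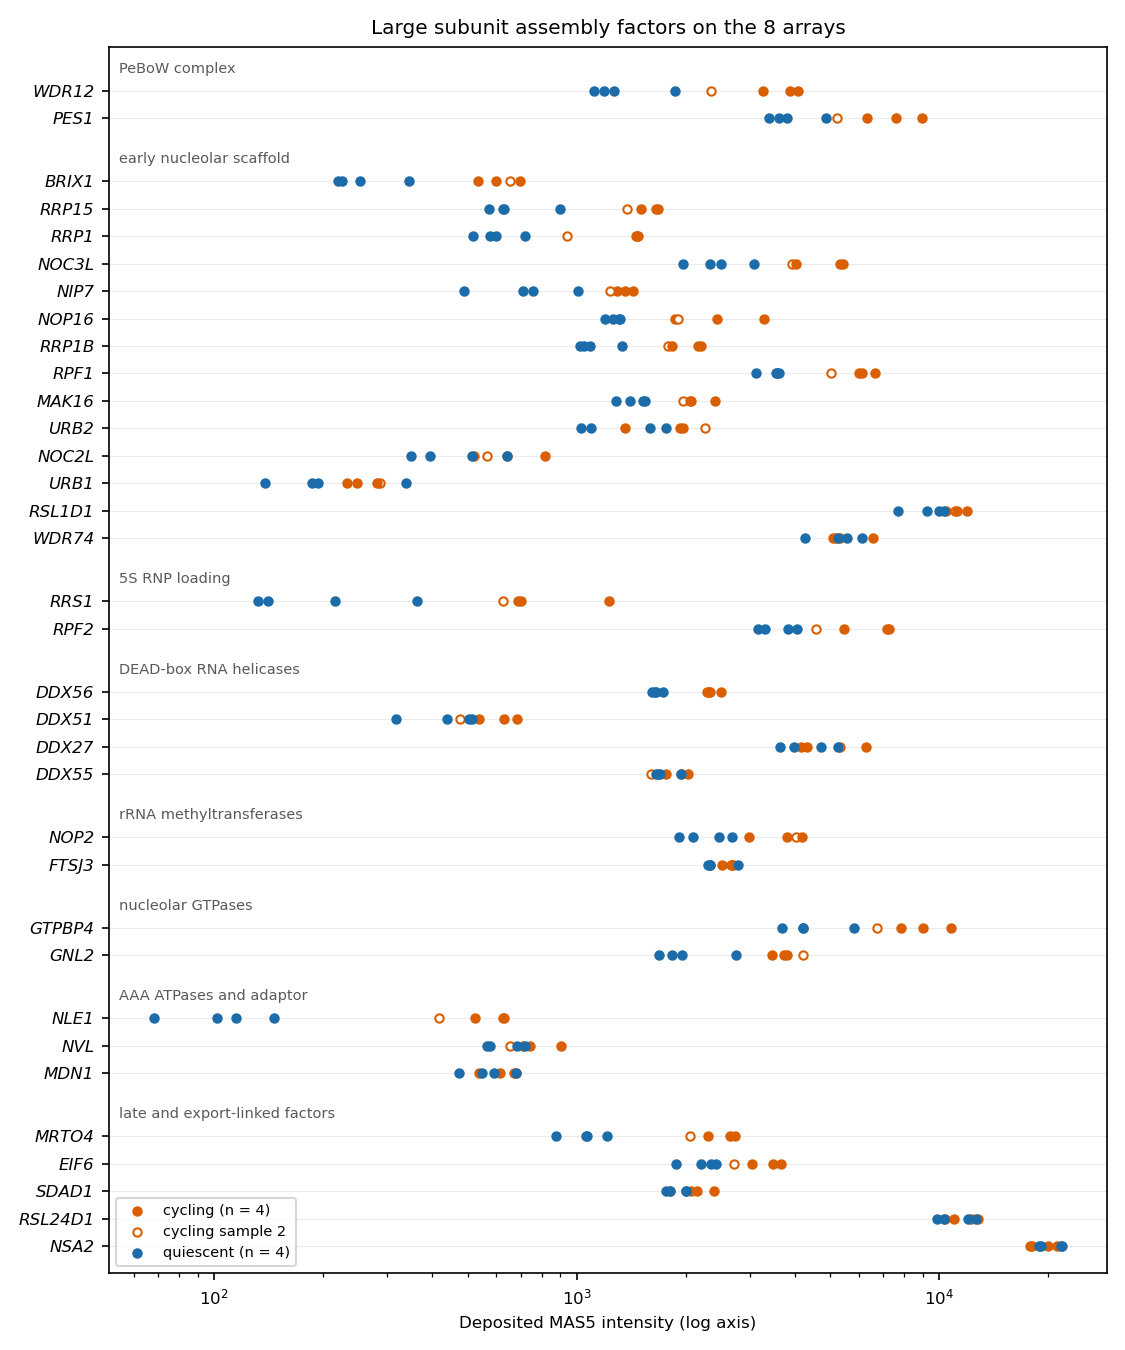
Deposited MAS5 intensity (log axis) of each of the 34 measured assembly factors on the 4 cycling (orange) and 4 quiescent (blue) arrays, grouped by role, with cycling sample 2 as an open circle. The groups lie apart for factors such as NLE1, RRS1 and MRTO4 and overlap for factors such as NSA2, RSL24D1 and WDR74.

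The arrays carried the labelled cell type and sort. The B cell genes MS4A1, CD79A, CD79B, PAX5 and CD22 summed to intensities of 51250 to 61831 on cycling and 51025 to 62458 on quiescent arrays. Of these 5, 4 were called lower after centring and 0 as deposited. The 13 markers of T cells, NK cells, myeloid and stromal cells were dim, with sums per list of 107 to 449 on cycling and 102 to 444 on quiescent arrays. Of the 5 that were tested, 0 were called, and 1 T cell gene was lower at an unadjusted p under 0.05. The 4 genes of dividing cells fell, MKI67 from 1899 ± 388 (SD, n = 4) to 362 ± 188 TOP2A from 4783 ± 512 to 539.9 ± 262, CCNB1 from 6334 ± 957 to 1358 ± 412 and PCNA from 8709 ± 1401 to 2704 ± 869.7, each under all 3 scalings. RNA quality signs differed between the same groups: for the ACTB control probe sets, the log2 value of 3′ over 5′ signal was 2.02 ± 0.20 (SD, n = 4) on cycling and 2.57 ± 0.18 (n = 4) on quiescent arrays (two-sided exact permutation p = 0.0286, the smallest the 70 assignments allow, and 0.0286 adjusted over the ACTB and GAPDH ratios). For the GAPDH control probe sets the same log2 value was -0.046 ± 0.088 on cycling and 0.113 ± 0.021 on quiescent arrays (two-sided exact permutation p = 0.0286, adjusted 0.0286). The part of RNA quality in the differences described here was not tested. Cycling sample 2 stood apart after centring. Its centred value was the lowest of the cycling arrays for 31 of the 34 factors, against 54.8% of all genes tested. Part of this comes from the scaling. Its median intensity was 97.9, against 71.9 to 79.1 on the other cycling arrays, so centring lowers its values more. As deposited it was the highest cycling array for some factors, such as URB2 (2263), and the lowest for others, such as PES1 (5212). Its ACTB ratio of 2.26 was the highest of the cycling arrays and under all quiescent arrays. Without cycling sample 2, 34 factors and 38.8% of all genes tested were called lower in the centred values. With the deposited scaling it was 20 factors beside 16.1% of all genes, and with quantile normalization 21 beside 15.97%.

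**Figure D2:**
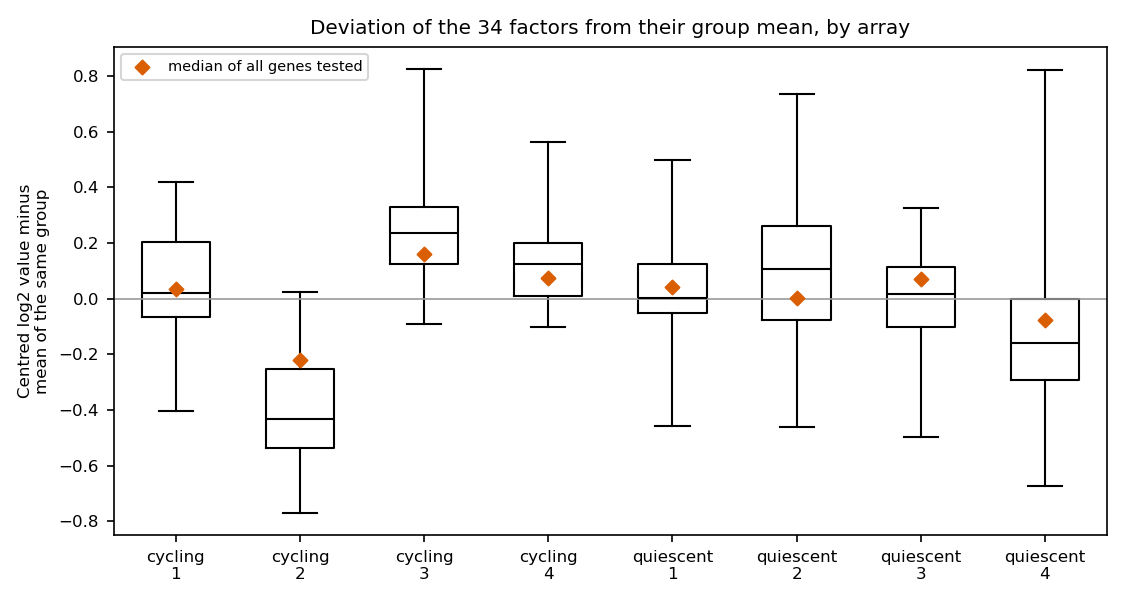
Distribution over the 34 factors of the centred log2 value minus the mean of the same group, for each array, as boxes with whiskers to the lowest and highest factor, and the median of all genes tested as a diamond. The factors on cycling sample 2 have a median of -0.43, against -0.22 for all genes on that array, and the other medians of the factors lie between -0.16 and 0.24.

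The PeBoW complex, named for PES1, BOP1 and WDR12, acts early and is needed to mature the 28S and 5.8S rRNAs. WDR12 had deposited intensities of 4085, 2348, 3878 and 3271 on cycling samples 1 to 4 and 1865, 1266, 1192 and 1119.5 on quiescent samples 1 to 4. It fell by 1.73 on the log2 scale after centring (SE 0.25, limma adjusted p = 7.17e-05). PES1 measured 8963, 5212, 7598 and 6324 on cycling and 4868, 3401, 3791 and 3617 on quiescent arrays. Its groups did not overlap either, although cycling sample 2 at 5212 and quiescent sample 1 at 4868 lay close together, and the log2 difference was -1.24 (SE 0.22, adjusted p = 3.68e-04). Both fell under all 3 scalings.

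The early nucleolar scaffold was the largest role, with 14 of 14 measured genes lower after centring (beside 32.5% of all genes tested) and a median log2 difference of -1.22. With the deposited scaling 9 of the 14 fell (beside 15.4%), with a median of -0.80, and with quantile normalization 9 of the 14 (beside 16.4%), with a median of -0.73. BRIX1, an rRNA-binding factor that gives its name to the Brix domain, was the lowest of them. It measured 533, 654, 597 and 699 on cycling and 253, 344, 226 and 219 on quiescent arrays, all quiescent arrays below all cycling arrays, and fell by 1.68 (SE 0.21, adjusted p = 1.94e-05). RPF1, another Brix domain protein, fell from 5949 ± 683 to 3466 ± 229.8 (SD, n = 4 each), and its partner MAK16 from 2123 ± 198 to 1439 ± 118. RRP15, which is needed for rRNA processing, fell from 1549.7 ± 139 to 683 ± 148. NOP16, a nucleolar protein, went from 2369 ± 659 to 1272 ± 55.2, and its 4 quiescent values were packed within 1198 to 1318 while the cycling values ran from 1865 to 3277. NIP7, which binds rRNA through a PUA domain, fell from 1326 ± 83.5 to 743 ± 213.

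RRP1 and RRP1B are paralogs, both nucleolar. RRP1 measured 1481, 941, 1465 and 1457 on cycling and 577, 601, 718 and 516 on quiescent arrays, while RRP1B measured 2162, 1783, 2203 and 1832 on cycling and 1085, 1333, 1024 and 1049.9 on quiescent arrays. Neither gene's groups overlapped. RRP1 fell by 1.55 (SE 0.23) and RRP1B by 1.24 (SE 0.19) on the centred log2 scale. The log2 ratio of RRP1 to RRP1B within an array, which does not depend on the centring, was -0.60 ± 0.24 on cycling and -0.90 ± 0.28 on quiescent arrays (SD, n = 4 each). That difference of -0.30 did not pass (two-sided exact permutation p = 0.2, adjusted over 2 pairs 0.229). With the mean of all probe sets of each gene in place of the brightest, the difference was 0.75, in the opposite direction (exact permutation p = 0.0286, unadjusted). The order of the paralogs thus rests on the choice of probe set.

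NOC2L and NOC3L belong to the NOC protein family, which accompanies early particles. NOC3L fell from 4676 ± 813 to 2472 ± 462, a log2 difference of -1.33 (adjusted p = 1.02e-04). NOC2L fell by less, from 636 ± 129.9 to 475 ± 131 (-0.85, adjusted p = 0.0097), its groups overlapped, and it did not pass as deposited (-0.44, adjusted p = 0.152). With the mean of all its probe sets NOC2L differed by 0.018 (adjusted p = 0.976). That mean takes in a dim probe set (means of 25.6 on cycling and 67.9 on quiescent arrays) that did not pass the intensity filter. URB1 and URB2, very large scaffold proteins, measured 262 ± 25.8 and 1879 ± 378 on cycling and 214 ± 86.4 and 1369 ± 365 on quiescent arrays. They fell by 0.78 and 0.88 after centring, and neither passed as deposited (adjusted p = 0.336 and 0.106). Quiescent sample 2 had the highest URB1 intensity of all 8 arrays, at 338. RSL1D1, a nucleolar protein with a ribosomal protein L1 domain, fell from 11142 ± 599 to 9315 ± 1175 (-0.68, adjusted p = 0.00448), and it too did not pass as deposited (-0.27, adjusted p = 0.0958).

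WDR74, which the ATPase NVL releases from early particles, had the smallest difference of this role. Its intensities were 6548, 5197, 5317 and 5107 on cycling and 6124, 4266, 5251 and 5568 on quiescent arrays, and the groups overlapped. The centred difference of -0.48 was close to the threshold (SE 0.18, adjusted p = 0.0475), while the deposited scaling gave -0.069 and quantile normalization 0.049.

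RPF2 and RRS1 form the pair that brings the 5S rRNA with RPL5 and RPL11 into the particle. RRS1 measured 689, 628, 1225 and 701 on cycling and 141, 216, 132 and 362 on quiescent arrays. The groups were far apart, with cycling sample 3 and quiescent sample 4 as the highest of their groups. RRS1 fell by 2.41 (SE 0.32, adjusted p = 5.65e-05), or 5.32-fold, the largest fall after NLE1, and by 2.00 as deposited. The quiescent values of 132 and 141 are dim, so the size of this fall rests in part on dim values. With 32 added to the intensities the log2 difference was -2.13. RPF2 measured 7173, 4571, 7269 and 5461 on cycling and 3817, 3301, 3172 and 4049 on quiescent arrays, without overlap, and fell by 1.16 (SE 0.21, adjusted p = 4.36e-04).

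The RNA helicases of the DEAD-box family, which use ATP to loosen RNA and protein contacts in the particle, differed less, with a median log2 difference of -0.71 over 4 measured genes. DDX56 had 2287, 2326, 2320.1 and 2502 on cycling and 1652, 1616, 1732 and 1639 on quiescent arrays, the tightest groups of the helicases, and fell by 0.92 (SE 0.17, adjusted p = 4.56e-04). With the mean of all its probe sets the fall did not pass (adjusted p = 0.155). That mean takes in a dim probe set (means of 48.4 on cycling and 60.5 on quiescent arrays) that did not pass the intensity filter. DDX55 had 2022, 1605, 1937 and 1764 on cycling and 1939, 1672, 1699.9 and 1659.8 on quiescent arrays. These values overlapped, and the difference of -0.48 did not pass (SE 0.19, adjusted p = 0.0523). Without cycling sample 2, which had the lowest deposited intensity of the 8 arrays for this gene, the centred difference was -0.63 and passed (adjusted p = 0.00394). As deposited, without the same array, it was -0.13 and did not pass (adjusted p = 0.473). DDX51, which helps free the U8 small nucleolar RNA from the precursor, fell from 583 ± 92.7 to 444 ± 90.3 (-0.82, adjusted p = 0.00937), and DDX27 from 5012 ± 976 to 4403 ± 725 (-0.59, adjusted p = 0.02). Neither passed as deposited, with differences of -0.40 and -0.18. The DDX27 probe set is of the kind whose probes can match other sequences, though a second DDX27 probe set also fell, by 0.64.

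The rRNA methyltransferases went unequally. NOP2, which methylates a cytosine of the 28S rRNA and is also known as a proliferation antigen, measured 2995, 4021, 3811 and 4188 on cycling and 2099, 2474, 1919 and 2676 on quiescent arrays. It fell by 1.13 (SE 0.18, adjusted p = 1.29e-04) with no overlap. FTSJ3, which methylates ribose, measured 2670.1, 2685, 2696 and 2511 on cycling and 2334, 2788, 2300.2 and 2326 on quiescent arrays. Its deposited values overlap, since quiescent sample 2 was the highest of all 8 arrays, and the difference was -0.53 centred (SE 0.17, adjusted p = 0.0199) and -0.12 as deposited (adjusted p = 0.483).

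The nucleolar GTPases GNL2 and GTPBP4 bind the particle before its export. GNL2 measured 3462, 4196, 3799 and 3732 on cycling and 1953, 2758, 1837 and 1689.6 on quiescent arrays. GTPBP4 measured 7849, 6715, 10802 and 9043 on cycling and 4205, 5816, 4205 and 3676 on quiescent arrays. In both genes all quiescent arrays lay below all cycling arrays, and they fell by 1.32 (SE 0.18, adjusted p = 4.59e-05) and by 1.35 (SE 0.22, adjusted p = 1.89e-04).

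Among the AAA ATPases and their adaptor the sizes were the most unequal of any role. NLE1, the WD-repeat protein on which the giant ATPase midasin (MDN1) acts, measured 632, 417, 523 and 627 on cycling and 146, 115, 102 and 68.4 on quiescent arrays. It fell by 2.79 (SE 0.29, adjusted p = 2.52e-06), or 6.94-fold, more than any other of the 34, and it fell by 2.38 as deposited. The quiescent values, from 68.4 to 146, lie near the intensity filter at 83.3, so the size of this fall rests on dim values. MDN1 itself measured 615, 678, 537 and 672 on cycling and 474, 680.3, 590.4 and 549.8 on quiescent arrays, which overlap as deposited, with a centred difference of -0.54 (SE 0.19, adjusted p = 0.0328) and -0.13 as deposited (adjusted p = 0.595). NVL, which strips WDR74 from the particle, measured 709.6, 653, 905 and 745 on cycling and 684, 576, 567 and 720.1 on quiescent arrays. The deposited values overlap. It fell by 0.65 after centring (SE 0.21, adjusted p = 0.0198) and did not pass as deposited (-0.24, adjusted p = 0.297).

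The late factors also split. MRTO4, a protein like the stalk protein RPLP0 that holds its place on the maturing particle, measured 2306, 2052, 2728 and 2640.0 on cycling and 1067, 1211, 879 and 1060.5 on quiescent arrays. The groups lay far apart, and MRTO4 fell by 1.62 (SE 0.20, adjusted p = 1.25e-05). EIF6, which keeps the new large subunit from joining a small one too soon, measured 3053, 2708, 3468 and 3667 on cycling and 2198, 1884, 2427 and 2339 on quiescent arrays. It fell by 0.95 (SE 0.20, adjusted p = 0.00109), again without overlap and under all 3 scalings. SDAD1, linked to export from the nucleus, measured 2104 ± 243 and 1894 ± 123 with overlapping arrays (-0.56, adjusted p = 0.0277, and -0.15 as deposited with adjusted p = 0.427).

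NSA2 and RSL24D1, which occupy late nuclear particles, had the smallest differences of all 34 in the centred values. NSA2 measured 21123, 18033, 20001 and 17788 on cycling and 21753, 18789, 21687 and 19082 on quiescent arrays. The groups overlapped and the deposited mean was the higher one in quiescent cells. The difference was -0.33 centred (SE 0.16, adjusted p = 0.122), 0.080 with the deposited scaling and 0.15 with quantile normalization, and none of these passed. Without cycling sample 2 the centred difference was -0.45 and passed (adjusted p = 0.0107). As deposited, without the same array, it was 0.050 and did not pass (adjusted p = 0.739). RSL24D1, which is exchanged for RPL24 in the cytoplasm, measured 12812, 12259, 10980.2 and 10357 on cycling and 12604, 11985, 10329 and 9849 on quiescent arrays, with a centred difference of -0.47 (adjusted p = 0.0293). Quantile normalization gave 0.082 and the deposited scaling -0.054. RPL24 itself measured 38229, 35094, 35663 and 33272 on cycling and 42483, 34092, 35894 and 39071 on quiescent arrays. The RPL24 probe set is of the kind whose probes can match other sequences. The log2 ratio of RSL24D1 to RPL24 within an array was -1.62 ± 0.09 on cycling and -1.76 ± 0.20 on quiescent arrays (SD, n = 4 each), a difference of -0.14 that did not pass (two-sided exact permutation p = 0.229, adjusted over 2 pairs 0.229). Without quiescent sample 2 it was -0.23 (exact permutation p = 0.0286, unadjusted and the smallest the remaining arrays allow). Without any other single array it ran from -0.17 to -0.067, with unadjusted exact permutation p from 0.229 to 0.486. After quantile normalization it was 0.048.

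**Figure D3:**
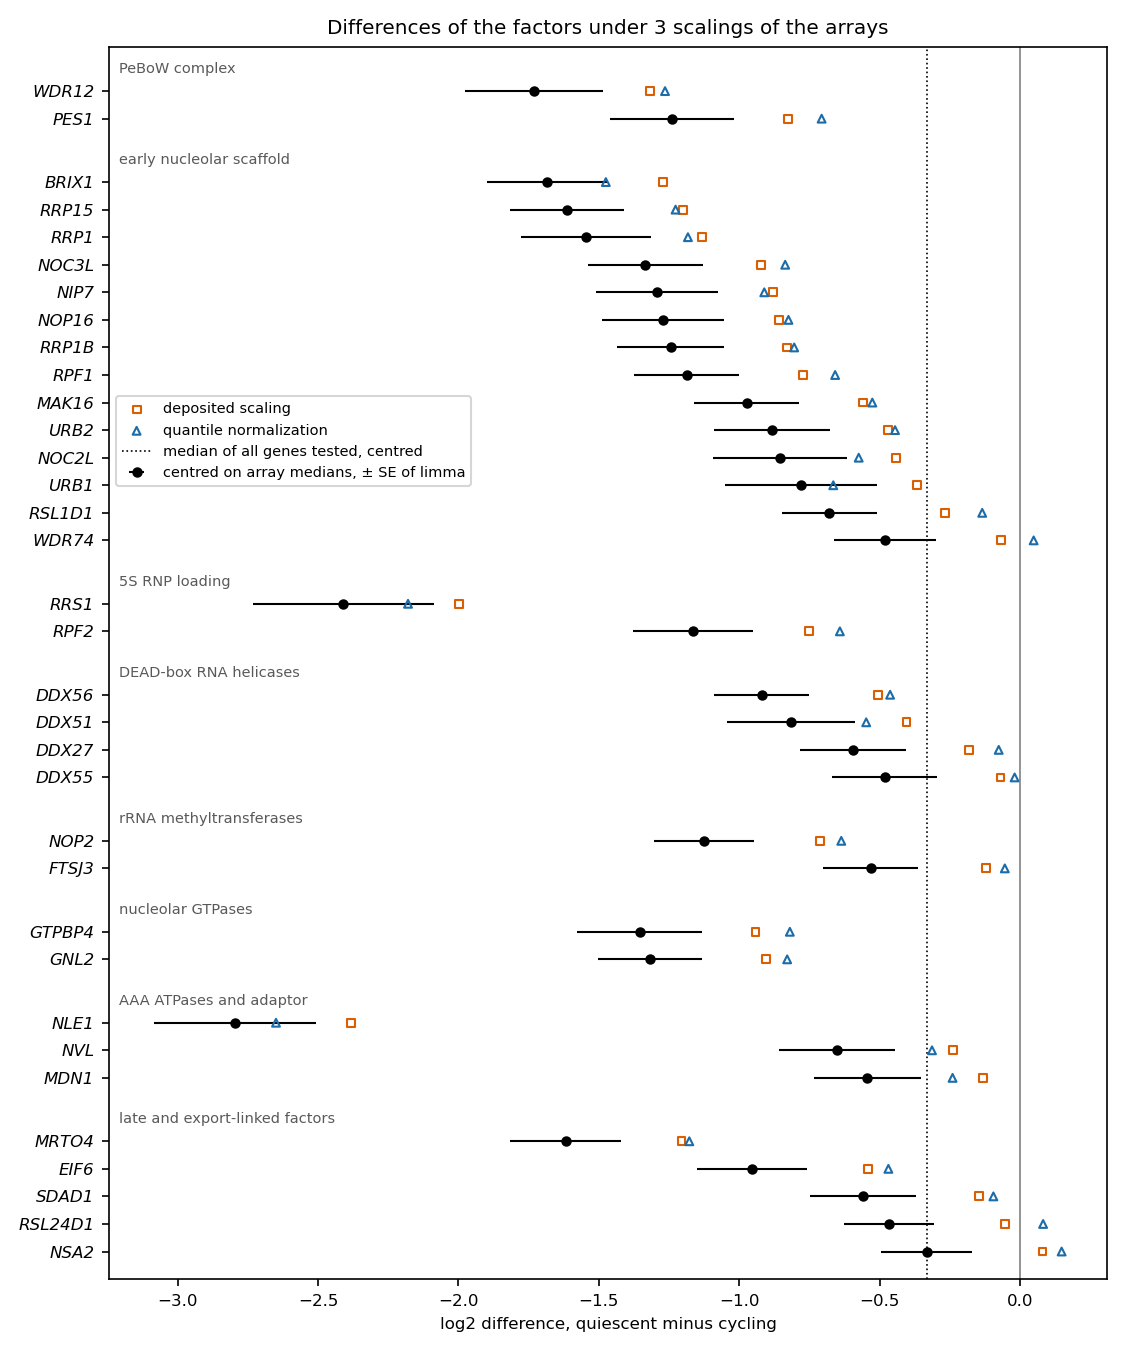
The log2 difference (quiescent minus cycling) of each measured factor by role, as black points with the standard error of limma for arrays centred on their medians, orange squares for the deposited scaling and blue triangles for quantile normalization, and a dotted line at the median of all genes tested in the centred values, -0.33. NLE1 and RRS1 lie farthest to the left, and among the centred points WDR74, RSL24D1 and NSA2 come nearest to 0.

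For 8 factors the centred call also ended when single arrays were left out. WDR74 did not pass without cycling sample 1, 3 or 4 or quiescent sample 2, 3 or 4, where its adjusted p ran from 0.0802 to 0.154. MDN1 did not pass without cycling sample 1, 3 or 4 or quiescent sample 1, 3 or 4 (0.0501 to 0.11). RSL24D1 did not without cycling sample 1, 3 or 4 or quiescent sample 3 or 4 (0.0542 to 0.114), and URB1 without cycling sample 3 or 4 or quiescent sample 1, 3 or 4 (0.052 to 0.103). These calls are the least firm of the 32. FTSJ3 was lost without cycling sample 3 or 4 or quiescent sample 3 or 4 (0.0523 to 0.0662), and SDAD1 without cycling sample 3 or 4 or quiescent sample 1 or 4 (0.0547 to 0.106). NVL was lost without cycling sample 3 or 4 or quiescent sample 3 (0.0528 to 0.086) and DDX27 without cycling sample 4 or quiescent sample 4 (0.0859 to 0.1). The 20 factors called under all 3 scalings were called lower in every one of these 8 fits, all of which used centred values. These 20 were picked on the same arrays and had also passed as deposited, with falls smaller by 0.41. Their calls here were therefore close to given and are no separate test. With the other scalings only cycling sample 2 was left out.

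Several probe sets report on some factors. The 34 genes had 66 probe sets, of which 54 passed the intensity filter, and 41 of these fell and 0 rose at an adjusted p under 0.05 over all 27307 probe sets that passed, of which 23.8% fell. Of the 15 factors with several passing probe sets, 7 fell on each of them, namely RRP1B, NOP16, NIP7, DDX27, GTPBP4, MRTO4 and RSL24D1. GTPBP4 fell by 1.35, 1.32 and 0.64, and MRTO4 by 1.62 and 1.32. RRP1B fell by 2.09 on its dimmer probe set, more than on the brighter one. In WDR12, RRP1, RRP15, RSL1D1, DDX51, MDN1 and SDAD1 some probe sets fell and others did not pass. The dimmer RRP1 probe set, of the kind whose probes can match other sequences, measured 516, 526, 471 and 404 on cycling and 592, 489, 370.1 and 671 on quiescent arrays, a log2 difference of -0.29 (adjusted p = 0.315). MDN1 had 1 dim probe set with a difference of 0.42 (adjusted p = 0.482), opposite in sign to the brightest. The dimmer WDR12 probe sets differed by -0.83 (adjusted p = 0.0352) and -0.37 (adjusted p = 0.359). For WDR74 neither of its passing probe sets was called over all probe sets (adjusted p = 0.058 and 0.159).

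**Figure D4:**
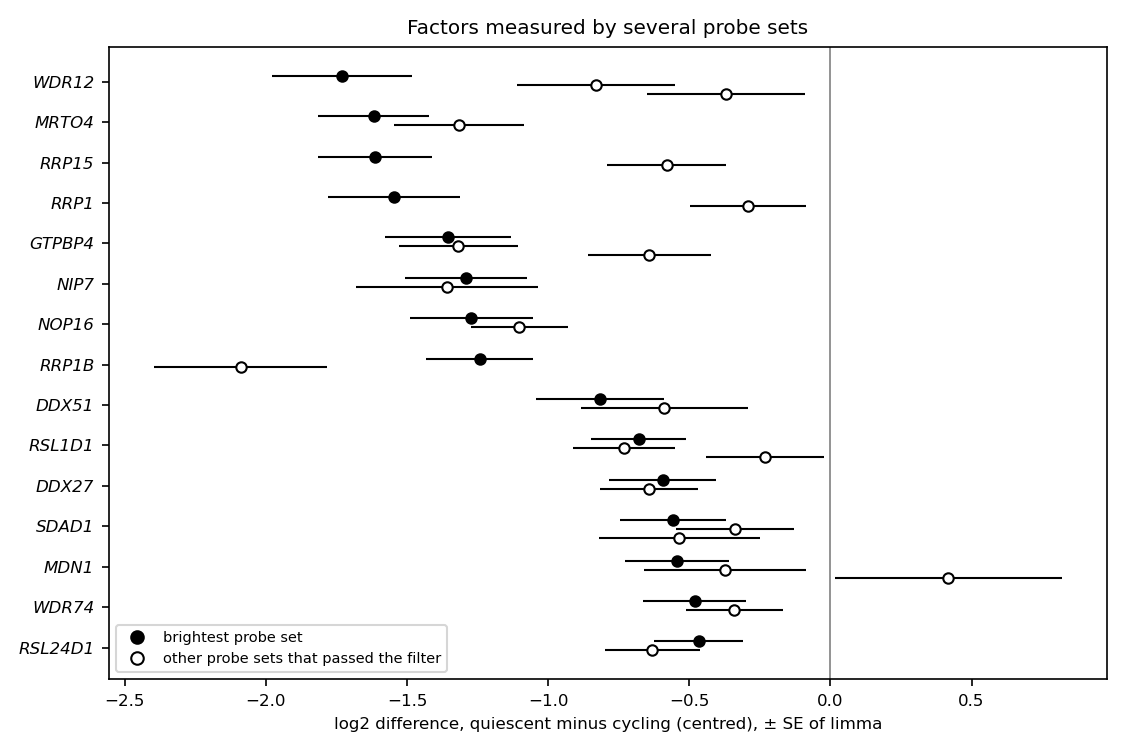
The log2 difference (quiescent minus cycling, centred) of each probe set that passed the filter, with the standard error of limma, for the 15 factors with several such probe sets. Filled points are the brightest probe sets and open points the others. All filled points lie under 0, the probe sets of MRTO4, NIP7, NOP16 and DDX27 lie close together, and those of RRP1, RRP15 and WDR12 lie apart.

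Other genes of the ribosome pathway give the setting, beside all genes tested, of which 32.5% were called lower and 2.8% higher after centring and 15.4% and 12.2% as deposited. Of 37 further large subunit factors outside the list, 28 fell and 0 rose in the centred values, with a median log2 difference of -0.77, and 16 fell and 0 rose as deposited (1 was higher at an unadjusted p under 0.05). The 3 lowest were PAK1IP1 at -1.98, PA2G4 at -1.72 and LAS1L, a factor that cuts the spacer next to the 5.8S rRNA, at -1.65. The 3 highest were NOP53 at 0.74 (adjusted p = 0.247), SENP3 at -0.28 (0.359) and NOL8 at -0.30 (0.259), none of which passed. NOP53 was dim, with means of 109 on cycling and 201 on quiescent arrays. Of 56 small subunit assembly factors, 46 fell and 0 rose, with a median of -0.91, and 32 fell and 1 rose as deposited. The large subunit ribosomal proteins, which the factors put in place, were measured too. Of 32 measured, 3 were lower and 0 higher after centring, with differences from -0.51 to 0.52 and a median of -0.25. Of these differences 31 were negative, and the 1 positive was that of RPL36A. Its probe set was dim, with means of 137 on cycling and 219 on quiescent arrays. As deposited 5 of the 32 were higher and 0 lower (9 and 0 at an unadjusted p under 0.05), with a median of 0.16. Most of the ribosomal protein probe sets were brighter than that of any factor, and several are of the kind whose probes can match other sequences. The lists were not matched for brightness, and whether brightness limits these differences was not tested. The difference between the lists was not tested.

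**Figure D5:**
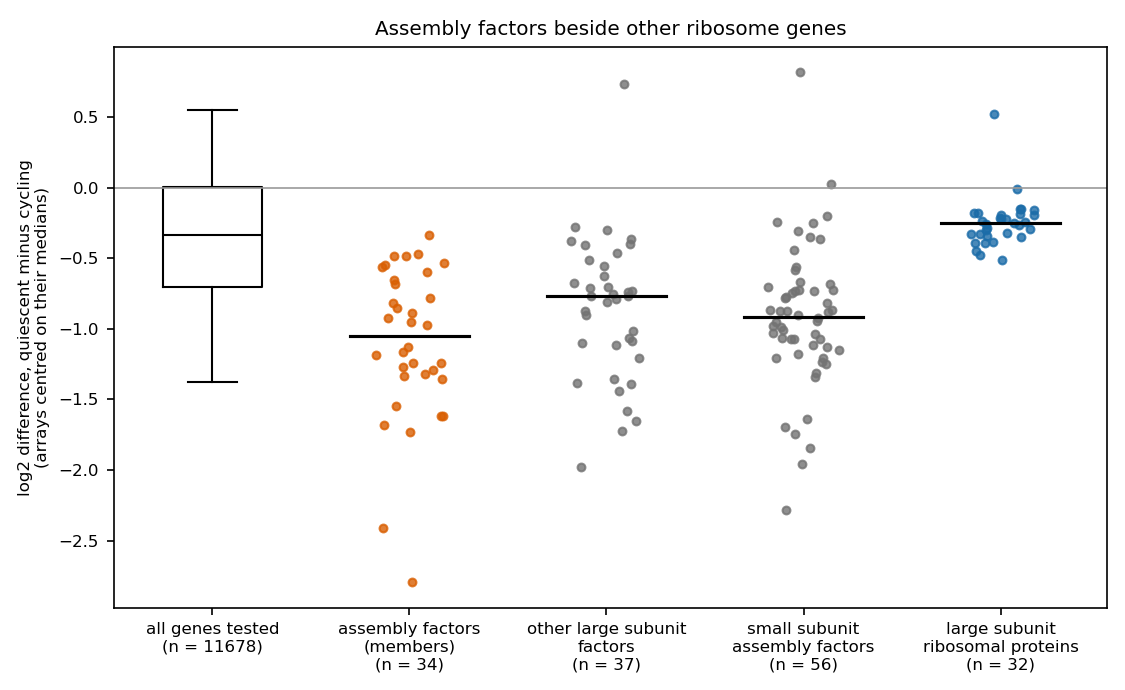
The log2 difference (quiescent minus cycling, arrays centred on their medians) of each gene in 4 lists, with a bar at the list median, beside a box for all 11678 genes tested (quartiles, whiskers at the 5th and 95th percentiles). The medians are -1.05 for the 34 assembly factors, -0.77 and -0.91 for the other large and the small subunit factors, -0.25 for the large subunit ribosomal proteins and -0.33 for all genes.

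The sample numbers were also taken in pairs, 1 with 2 and 3 with 4. This reuses the same arrays, so it is no separate test of direction. For the 28 factors whose quiescent arrays all lay under all cycling arrays in the centred values, both centred differences had to be negative. Between samples 1 and 2 of both groups the median centred difference of the 34 factors was -0.81, with 34 of 34 negative, against -0.24 for all genes tested. Between samples 3 and 4 it was -1.30, also with 34 of 34 negative, against -0.45 for all genes. With the deposited scaling the medians were -0.52 and -0.77, against 0.051 and 0.080 for all genes, and NSA2 was positive in both comparisons and WDR74 in the second. Among the quiescent arrays sample 4 was the lowest for 20 of the 34 factors, and 33.0% of all genes tested were lowest there. The E-box and ETS motifs described at the start occurred both in factors that fell under all 3 scalings and in others. Of the 16 factors with a promoter sequence that fell under all 3 scalings, 6 had the E-box and 9 the ETS motif, and of the 12 that did not, 2 and 5 did.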

How the data were processed

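Gene expression was measured on Affymetrix U133 Plus 2.0 arrays, 1 per sample, in 4 cycling and 4 quiescent samples. The authors deposited linear MAS5 intensity values, per the submitters' processing notes and the labels, with each array scaled to one trimmed mean (500.1 here, with 2% trimmed at each end). Of 54675 probe sets, 62 were controls, 41097 carried 1 gene symbol in the platform annotation, 1801 several and 11777 none; 41043 matched RefSeq by gene and no symbol changed.

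Intensities were floored at 1, put on the log2 scale and centred on each array's median. The brightest probe set stood for a gene, and genes with a mean above the overall median (an intensity of 83.3) were tested. limma 3.58.1 in R 4.3.3 (eBayes with trend and robust) compared the groups, with Benjamini-Hochberg adjustment over 11678 genes and a threshold of 0.05. Tests on single ratios were two-sided exact permutation tests over 70 assignments, and over fewer where an array was left out. Precision is limited by the number of arrays.

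The members and lists were chosen with earlier results of these data known. Intensities on every array are given for the lowest and highest factor of each role (all of roles of up to 3), for MDN1, EIF6, NOP2, pair members and factors not called. Of 4 planned pairs, those of MRTO4 with RPLP0 and EIF6 with RPL23 were not run, since these ribosomal proteins had no probe set of their own. On simulated data with 200 of 11678 genes changed, the fit recovered 55% of 2-fold and 92% of 4-fold changes, with 10 false calls. Far more genes were called in the real comparison, 3795 lower and 327 higher, so these rates need not hold for it. Alternatives were 2 other scalings, 2 filters, an offset of 32, the mean of probe sets, 2 blocks, a plain eBayes and leaving out each array.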

Additional observations from a re-analysis of the deposited data

Results flagged for a closer look

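In 5 of the 68 groups of 4 arrays (34 factors in 2 groups), 1 array lay far from the other 3 on the centred log2 scale, measured as its gap to the nearest array over the group's whole range. Chance flags about 1 in 20 groups in this way. RRP1 had an intensity of 941 on cycling sample 2, with the nearest cycling array at 1457. NLE1 had 417 on cycling sample 2, with the nearest at 523. RRP15 had 900.5 on quiescent sample 2, above the next at 629. On quiescent sample 4, RSL1D1 had 7675, with the nearest quiescent array at 9276, and NOP16 had 1198, with the nearest at 1309.6. RRP1, NLE1, RRP15 and NOP16 were called lower in quiescent cells under all 3 scalings, and RSL1D1 was called lower in the centred values.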

How the results depend on the processing

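The scaling of the arrays changed the results most. With the deposited scaling 20 factors fell (median -0.64) and 1802 genes fell and 1430 rose, and with quantile normalization 20 factors fell (median -0.64) and 1914 genes fell and 1230 rose, against 32 factors, 3795 and 327 after centring. With cycling sample 2 also left out, a choice made after seeing the data, these were 20 (median -0.65), 1876 and 1697 as deposited, and 21 (median -0.67), 1864 and 1309 after quantile normalization. NSA2 turned to 0.080 as deposited and 0.15 after quantile normalization, and to 0.050 and 0.15 without cycling sample 2. WDR74 turned to 0.049 and RSL24D1 to 0.082 after quantile normalization, and to 0.051 and 0.14 without cycling sample 2. NOC2L turned to 0.018 with the mean of all probe sets, which takes in a dim one that did not pass the intensity filter. The ratio of RSL24D1 to RPL24 turned to 0.048 after quantile normalization, and that of RRP1 to RRP1B to 0.75 with the mean of all probe sets. The causes were not tested. In the other fits of the centred values on all arrays, without a replicate block, 29 of 34 factors fell with no filter (17.2% of all genes tested), 29 of 30 with the filter at the 75th percentile (47.7%), 27 of 34 with 32 added (28.4%), 24 of 32 with the mean of probe sets (29.3%), 31 of 34 with sample numbers 1-2 and 3-4 as a block (33.1%) and 29 of 34 with the plain eBayes (29.0%). Leaving out single arrays gave 24 to 34 factors lower and 0 higher, medians of -1.15 to -0.95, 2945 to 4536 genes lower (25.2% to 38.8%) and 223 to 358 higher. It gave ratio differences of -0.23 to -0.067 for RSL24D1 to RPL24 and -0.43 to -0.21 for RRP1 to RRP1B. Sample numbers are shared between the groups, and the labels do not say whether they pair the samples. The deviations of same-numbered arrays correlated at 0.34, 0.20, 0.11 and 0.036, and those of unlike numbers at -0.17 to 0.14. Cycling samples 1, 2 and 3 correlated best with the quiescent sample of the same number, and cycling sample 4 with quiescent sample 3 (0.14). With the replicate block 34 factors and 38.0% of all genes fell (median of the factors -1.05), DDX55 (adjusted p = 0.0214) and NSA2 (0.0239) among them. Arrays left out 1 at a time were assumed to vary alike.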
